A study of Sus scrofa with 10 samples.

Results

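Astroglia with high AQP4 were taken from single cell RNA-seq libraries of the pig medial entorhinal cortex (MEC) as 3589 of 28229 cells. AQP4 encodes aquaporin-4, the water channel of astrocyte membranes. A cell was a member if it held at least 5 AQP4 UMIs (unique molecular identifiers, 1 for each captured RNA molecule) that made up at least 0.1% of its UMIs. To keep out microglia, vascular cells and red blood cells, a member also had at most 5 UMIs of C1QA and C1QB, at most 2 of COL1A1 and RGS5, and under 5% of its UMIs in HBB. The rule also names CLDN5, an endothelial gene that is not in the tables used here, so the vascular limit rests on COL1A1 and RGS5. The members were thus chosen by their AQP4 UMIs, and the AQP4 level in them is a description.

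There were 10 libraries, named as in the labels. They came from adult brains and from fetal brains of 3 gestational ages in embryonic days, E50, E60 and E70, with no genetic change or treatment. Whole cells were freed with papain in E50_1, E60_1, E60_2, E60_3, E70_1, E70_2, E70_3 and Adult_1, and nuclei of frozen tissue were sorted on the DNA dye 7-AAD in E70_nc and Adult_nc. The fetuses were crossbred males and females of Danish Landrace/Yorkshire sows and Duroc boars, and the adult tissue came from sows. The study names the oldest stage both as adult and by a postnatal day, and the labels' term adult is used here, so its exact age was not settled. A library held 1 brain by the labels, except for 2 brains each in E60_3 and E70_1 and 3 in E50_1. The sum of UMIs ran from 2336865 in Adult_nc to 55755512 in E50_1.

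Astrocytes arise from radial glia, the stem cells that line the ventricles of the developing brain, and take over the clearance of glutamate, potassium and water around neurons and vessels. In mature tissue AQP4 is gathered on the endfeet that astrocytes lay on blood vessels, where the dystrophin complex anchors it. Ependymal cells, which carry motile cilia along the ventricle wall, and some radial glia also express it. In the files AQP4 lay on chromosome 6 of Sscrofa11.1 from 111407632 to 111422169, and SLC1A3, SLC1A2 and GFAP, the other markers of these cells, lay on chromosome 16 from 21873691 to 21965315, on chromosome 2 from 25603892 to 25771840 and on chromosome 12 from 18456268 to 18466594.

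The members were spread unevenly over the libraries. E60_1 alone held 2871 of them, which was 80.0% of all members and 35.1% of its own cells (exact Clopper-Pearson 95% CI 34.1 to 36.2, counting error only, as for all intervals here). The share was 7.93% in E60_2 (276 cells) and 1.3% in E60_3 (35 cells), so that the E60 libraries had a mean of 14.8% ± 17.9 (SD, n = 3). At E70 the share was 0.811% in E70_1 (4 cells), 2.59% in E70_2 (16 cells) and 5.77% in E70_3 (180 cells), with a mean of 3.06% ± 2.51 (SD, n = 3). E60_1 thus lay above every other library, and the spread within E60 was larger than the distance between the means of the 2 stages. E50_1 held 148 members (2.69%) and Adult_1 held 50 (6.78%). Among the nuclei there were 6 members in E70_nc (0.699%) and 3 in Adult_nc (0.118%). The libraries with members in double figures, used for all comparisons below, had a median of 4051 to 11328.5 UMIs per member.

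**Figure D1:**
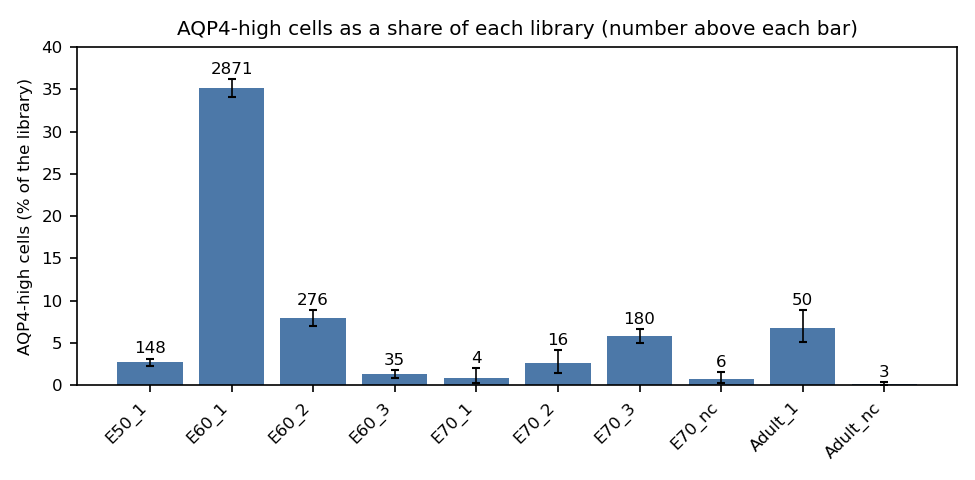
Share of each library's cells that were AQP4-high (%), with exact 95% intervals as bars and the number of cells above. E60_1 stood at 35.1% and all other libraries at or below 7.93%.

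AQP4 RNA was also found outside the members of the same libraries. In microglia-like cells (over 20 UMIs of C1QA and C1QB), which should lack it, AQP4 reached 357 CPM (UMIs per 1000000 UMIs of the cells summed) in E60_1 and 146 CPM in E60_2, and 0 to 18.3 CPM in the 6 other whole cell libraries. An AQP4 UMI was found in 30.3% of the microglia-like cells of E60_1, at a median of 4946 UMIs, and in 60.1% of all its cells. The AQP4 limits were met by 106 of the 921 microglia-like cells of E60_1 and by 19 of the 407 of E60_2, and the limits on other cell types removed 435 and 64 cells from these libraries. Among the members AQP4 stood at 1530 to 3070 CPM in the 7 libraries compared below. An alternative chosen after seeing the data raised the AQP4 limit of each library by the AQP4 level of its microglia-like cells. E60_1 still held 2713 members (33.2%) with it. How many microglia-like cells met the raised limit was not counted.

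Most members lay well inside the rule. At least 10 AQP4 UMIs were found in 2453 of them, 199 had exactly 5 and 205 had 6, and 116 cells with 4 UMIs lay just outside. By share, 207 members had 0.1 to 0.12% of their UMIs in AQP4 and 165 cells with 0.08 to 0.1% lay just outside. Of 27777 distinct barcodes 449 occurred in more than 1 library, and 1 of them was a member in more than 1. Doublet scores marked 191 of the 2871 members of E60_1 (6.65%), 6 in E50_1, 5 in E70_3, 4 in E60_2 and none in the other libraries.

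The label of astroglia was checked with the markers the rule did not use. SLC1A3, the glutamate transporter GLAST, had a UMI in 89.4% to 100% of the members of each of the 7 libraries, against 19.5% to 84.1% of the microglia-like cells there. SLC1A3 was highest in the adult members, with 2660 CPM, and lay between 377 CPM (E70_2) and 1010 CPM (E60_1) in the fetal ones. SLC1A3 RNA also reached 375 CPM in the microglia-like cells of Adult_1. GFAP, the filament protein of astrocytes, was at 453 to 2290 CPM in the members and at 3.79 to 53.4 CPM in microglia-like cells. No UMI of SLC1A3, SLC1A2 or GFAP was found in 2.93% of the E60_1 members and at most 1.45% in the 6 other libraries. SLC1A2 was at 103 (E60_1) to 4770 CPM (Adult_1) in the members and at 12.2 (E70_2) to 59.2 CPM (E60_2) in microglia-like cells. Set against microglia-like cells, these markers did not go against the label in any of the 7 libraries. STMN2, a neuron marker, was at 218 CPM in the E60_1 members and at 142 CPM in its microglia-like cells. It was also higher in the members of E70_2, E70_3 and Adult_1, and lower in those of E50_1, E60_2 and E60_3. The 670 E60_1 members with 0.1 to 0.2% of their UMIs in AQP4 held 502 CPM of STMN2, and those with 0.2 to 0.4% held 152 CPM. The source of this RNA was not tested. Radial glia and ependymal cells were not set beside the members here, so the check cannot tell astrocytes from them.

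To ask what accompanied AQP4, the members were compared with AQP4-free SLC1A3 cells, 2797 cells with no AQP4 UMI, at least 2 SLC1A3 UMIs and the same limits on other cell types. UMIs were summed per library and class, and the 7 libraries with at least 10 cells of each class (E50_1, E60_1, E60_2, E60_3, E70_2, E70_3 and Adult_1) served as replicates in edgeR's quasi-likelihood test with the library as a term and Benjamini-Hochberg adjustment over 13718 genes. At an adjusted p under 0.05, 769 genes (5.61%) were higher and 745 (5.43%) lower in the members. The sum of both, 1514, was 955 without E50_1, 1000 without E60_3 and 827 without E70_3. All adjusted p-values below are from this test, and log2 fold changes (log2FC) are members minus AQP4-free cells with their SE. The labels do not say that libraries of 1 stage came from separate litters, so p-values measure the spread between these libraries. The AQP4-free cells were a mixture. Their summed CPM of 7 neuron markers was 208 to 2250, against 63.5 to 617 in the members, that of 3 endothelial markers was 55.6 to 509, against 15.4 to 92.9, and in Adult_1 that of 4 oligodendrocyte markers was 10500, against 2180. The sum of 5 choroid plexus markers in Adult_1 was 4520, against 200. In the fetal libraries compared it was 42.8 to 108, against 61.6 to 102.

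Astrocyte genes were higher in the members. Of 20 astrocyte genes tested, 15 were called higher and none lower, with a median log2FC of 1.96 against -0.06 for all genes and a background of 5.61% called higher. GFAP stood at 547, 453, 481, 561, 954, 845 and 2290 CPM in the members of E50_1, E60_1, E60_2, E60_3, E70_2, E70_3 and Adult_1, the order used throughout, and at 33.7, 26.3, 118, 13.3, 14.6, 26.4 and 55.3 CPM in the AQP4-free cells. The 2 classes did not overlap, and the adult members were the highest (log2FC 4.57 ± 0.416, adjusted p = 0.000339).

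CLU, a secreted lipid carrier, was among the most abundant genes, with 3240, 4680, 4770, 5060, 4620, 7060 and 7340 CPM in the members and 422 to 1790 CPM in the AQP4-free cells. Again no member value fell into the range of the AQP4-free cells (log2FC 2.62 ± 0.283, adjusted p = 0.000589). MT3, a metal-binding protein of astrocytes and neurons, rose by 2.71 ± 0.393 on the log2 scale (adjusted p = 0.00184) and was at 3170 CPM in E60_1 and at 14100 CPM in Adult_1. ALDOC, a glycolytic enzyme of astrocytes, was at 674 to 1410 CPM in the members and 50.8 to 360 CPM in the AQP4-free cells, with no overlap (log2FC 3.24 ± 0.375, adjusted p = 0.000753).

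GJA1, the gap junction protein connexin 43, was at 69.7, 232, 262, 202, 141, 170 and 629 CPM in the members and at 30.3, 37.8, 82.2, 9.26, 1.95, 9.72 and 16.9 CPM in the AQP4-free cells. It was higher in the members of each of the 7 libraries, but the ranges met, since E50_1 members lay below the AQP4-free cells of E60_2 (log2FC 3.37 ± 0.494, adjusted p = 0.00195). Other called genes of the list included AGT (angiotensinogen, log2FC 3.02), DIO2 (which activates thyroid hormone, 3.01), NDRG2 (2.16), SLC15A2 (a peptide transporter, 1.97), FGFR3 (1.95), SLC4A4 (a bicarbonate transporter, 1.62), SOX9 (1.62) and ALDH1L1 (1.58). AGT and DIO2 were not higher in the members of every library. AGT was at 12.4 CPM in the members of E60_2 and at 13.6 CPM in its AQP4-free cells. DIO2 was at 0, 1.62 and 0.654 CPM in the members of E50_1, E60_1 and E60_2 and at 22.2 to 49 CPM in those of the other 4.

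APOE, the main lipid carrier made by astrocytes, was at 9450, 190, 352, 295, 124, 154 and 6670 CPM in the members and at 410, 28, 81.3, 2.35, 5.86, 1.5 and 219 CPM in the AQP4-free cells. E50_1 and Adult_1 stood far above the other libraries in both classes, and the members were higher within each library (log2FC 4.55 ± 0.553, adjusted p = 0.000847). The microglia-like cells showed the same split, with 5960 CPM in E50_1, 7380 CPM in Adult_1 and 152 to 589 CPM elsewhere. Adult_1 was above E50_1 in them and below it in the members. The part of free RNA or of the library in these levels was not tested.

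Not all astrocyte genes followed. SLC1A2, the glutamate transporter GLT-1 of mature astrocytes, was at 171, 103, 110, 284, 130, 377 and 4770 CPM in the members and at 67.3, 120, 89, 116, 109, 161 and 51.9 CPM in the AQP4-free cells. The adult members stood far above all AQP4-free cells, those of E50_1, E60_3 and E70_3 lay above the highest AQP4-free value by less, and those of E60_1, E60_2 and E70_2 lay within the AQP4-free range (log2FC 1.26 ± 0.583, adjusted p = 0.192). SPARCL1 and CST3, both secreted proteins, had log2FC values of 0.52 ± 0.431 and 0.91 ± 0.348 with adjusted p-values of 0.491 and 0.116. Both were called higher with AQP4-free cells chosen by SOX2 UMIs in place of SLC1A3 (log2FC 2.06 and 1.59, adjusted p = 0.00837 and 0.000245) and with stricter AQP4-free cells, held to at most 2 UMIs each of STMN2, MBP and FLT1, a choice made after seeing the data (1.97 and 1.29, adjusted p = 0.00318 and 0.00255). The shares of all genes called higher there were 5.89% and 5.68%.

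**Figure D2:**
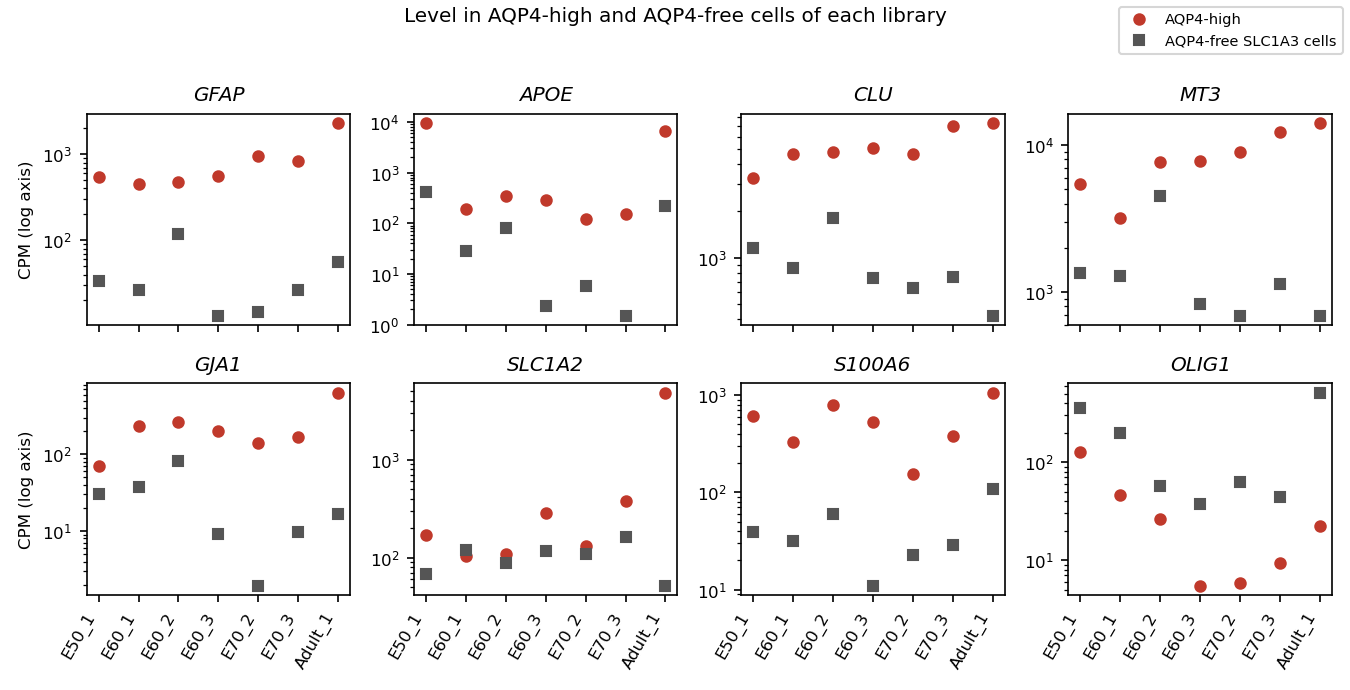
Level of 8 genes (CPM, log axis) in the AQP4-high cells (circles) and the AQP4-free SLC1A3 cells (squares) of the 7 libraries. The circles of GFAP lie at 453 to 2290 CPM and its squares at 13.3 to 118 CPM, the circles of SLC1A2 lie within the range of its squares in E60_1, E60_2 and E70_2, and OLIG1 is lower in the members of every library.

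Of 10 genes of the endfoot and dystrophin complex, 5 were called higher (background 5.61%) and none lower, with a median log2FC of 0.64. MLC1, a membrane protein of endfeet, was at 110, 119, 148, 135, 70.7, 124 and 248 CPM in the members and at 3.38 to 56.9 CPM in the AQP4-free cells. The classes did not overlap (log2FC 3.23 ± 0.492, adjusted p = 0.00249). HEPACAM, the adhesion partner of MLC1, KCNJ10, the potassium channel Kir4.1, DAG1, which encodes dystroglycan, and DTNA, which encodes dystrobrevin, had log2FC values of 1.59, 1.28, 0.96 and 0.85 and were each higher in the members of all 7 libraries. DMD, which encodes dystrophin, was at 321, 509, 330, 480, 430, 350 and 340 CPM in the members and at 226 to 452 CPM in the AQP4-free cells. These ranges overlapped (log2FC 0.09 ± 0.138, adjusted p = 0.738). UTRN (utrophin), AGRN (agrin), TRPV4 and CLCN2 (ion channels) were not called either, with log2FC values of -0.49, 0.44, -0.07 and -0.34.

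For glutamate and amino acid handling, 4 of 7 genes were called higher (background 5.61%) and none lower, with a median log2FC of 1.26. GLUD1, the glutamate dehydrogenase, was at 193 to 420 CPM in the members and at 32.2 to 150 CPM in the AQP4-free cells, with no overlap (log2FC 2.04 ± 0.233, adjusted p = 0.00075). SLC6A11, a GABA transporter of astrocytes, SLC7A11, the cystine and glutamate exchanger, and GPT2, a transaminase, had log2FC values of 1.89, 1.29 and 0.75. SLC6A11 varied most over the libraries, with 528, 366, 166, 52.5, 5.89, 51 and 235 CPM in the members, and was lower in the members than in the AQP4-free cells of E70_2 (29.3 CPM). SLC6A9, a glycine transporter, was not called.

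Radial glia genes were higher together with the astrocyte genes. Of 11 tested, 8 were called higher (background 5.61%) and 1 lower (background 5.43%), with a median log2FC of 1.62. FABP7, the fatty acid binding protein of radial glia, was at 4750, 3030, 2330, 6590, 1930 and 6450 CPM in the members of the 6 fetal libraries and at 470 CPM in the adult ones. It was higher in the members than in the AQP4-free cells of each library (log2FC 1.64 ± 0.306, adjusted p = 0.00628). The transcription factors HES1 and SOX2, the extracellular protein TNC, the phosphatase PTPRZ1, the receptor LIFR, and FAM107A were called higher too, with log2FC values of 1.94, 1.67, 1.70, 1.49, 1.14 and 1.90.

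The gene that went the other way was NES, which encodes nestin, an intermediate filament protein of neural stem cells. It was at 44, 6.54, 22.2, 19.3, 0, 10.7 and 3.7 CPM in the members and at 106, 47.7, 57.8, 26, 6.83, 20.9 and 6.77 CPM in the AQP4-free cells, lower in the members of all 7 libraries (log2FC -1.40 ± 0.297, adjusted p = 0.0113). VIM, the filament protein vimentin, did not pass the test (log2FC 1.28 ± 0.398, adjusted p = 0.0582), but was called by DESeq2 (adjusted p = 0.0161), with no filter on low counts (0.0282) and without E60_1 (0.0413) or E60_2 (0.0351). In E50_1, E60_1 and E60_2 both classes held 1370 to 2190 CPM of VIM, and in the other libraries the members held 548 to 1550 CPM and the AQP4-free cells 66.6 to 329 CPM.

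Among 15 gliogenic factors, transcription factors and receptors of the switch from neurons to glia, 6 were called higher (background 5.61%) and none lower, with a median log2FC of 0.90. These were SOX9, ID4 (log2FC 2.61), HEY1 (1.91), HEY2 (1.47), NOTCH2 (1.35) and NFIA (0.90). NFIA, which starts astrocyte gene expression, was at 984 to 1630 CPM in the members and 354 to 899 CPM in the AQP4-free cells, with no overlap. Its relatives NFIB and NFIX were not called, with log2FC values of 0.27 ± 0.153 and -0.06 ± 0.222.

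Of 12 genes of lipid and cholesterol handling, 6 were called higher (background 5.61%) and none lower, with a median log2FC of 0.89. Besides APOE, CLU and FABP7 these included HMGCS1, an enzyme of sterol synthesis, and ACSBG1, an acyl-CoA synthetase. HMGCS1 was at 1080, 881, 557, 563, 418, 546 and 115 CPM in the members, the least in the adult (log2FC 1.6 ± 0.213, adjusted p = 0.00113). ABCA1, INSIG1, ACSL3, LPL and FABP5 were among those not called. Among 12 growth factor and guidance genes, FGFR1, FGFR3, BMPR1B, LIFR and CXCL14 were called higher and SLIT2 and EFNB2 lower (backgrounds 5.61% and 5.43%), with a median log2FC of 0.81. CXCL14, a chemokine, was at 492 CPM in the E50_1 members and 1400 CPM in the adult ones and at 5.89 to 97.2 CPM in the others (log2FC 2.54 ± 0.517, adjusted p = 0.0095). SLIT2, a secreted repellent of axons, was at most at 23.9 CPM in the members and up to 188 CPM in the AQP4-free cells of E60_3 (log2FC -1.55 ± 0.338, adjusted p = 0.013).

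Some of these calls rested on single libraries. Leaving out E50_1, E60_1, E60_2, E60_3 or E70_3 ended that of DTNA, leaving out E50_1, E60_1 or E60_3 those of ALDH1L1 and SLC6A11, and leaving out E50_1, E60_1 or E70_3 that of GPT2. Without E70_3 the calls of FAM107A, HEY2, FGFR1 and SLIT2 were lost, FGFR1 also without E60_3, and EFNB2 lost its call without E50_1, E60_1, E60_2 or E70_3. Over all alternatives the adjusted p reached at most 0.125 for DTNA, 0.201 for ALDH1L1, 0.0773 for SLC6A11, 0.243 for GPT2 and 0.624 for EFNB2.

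**Figure D3:**
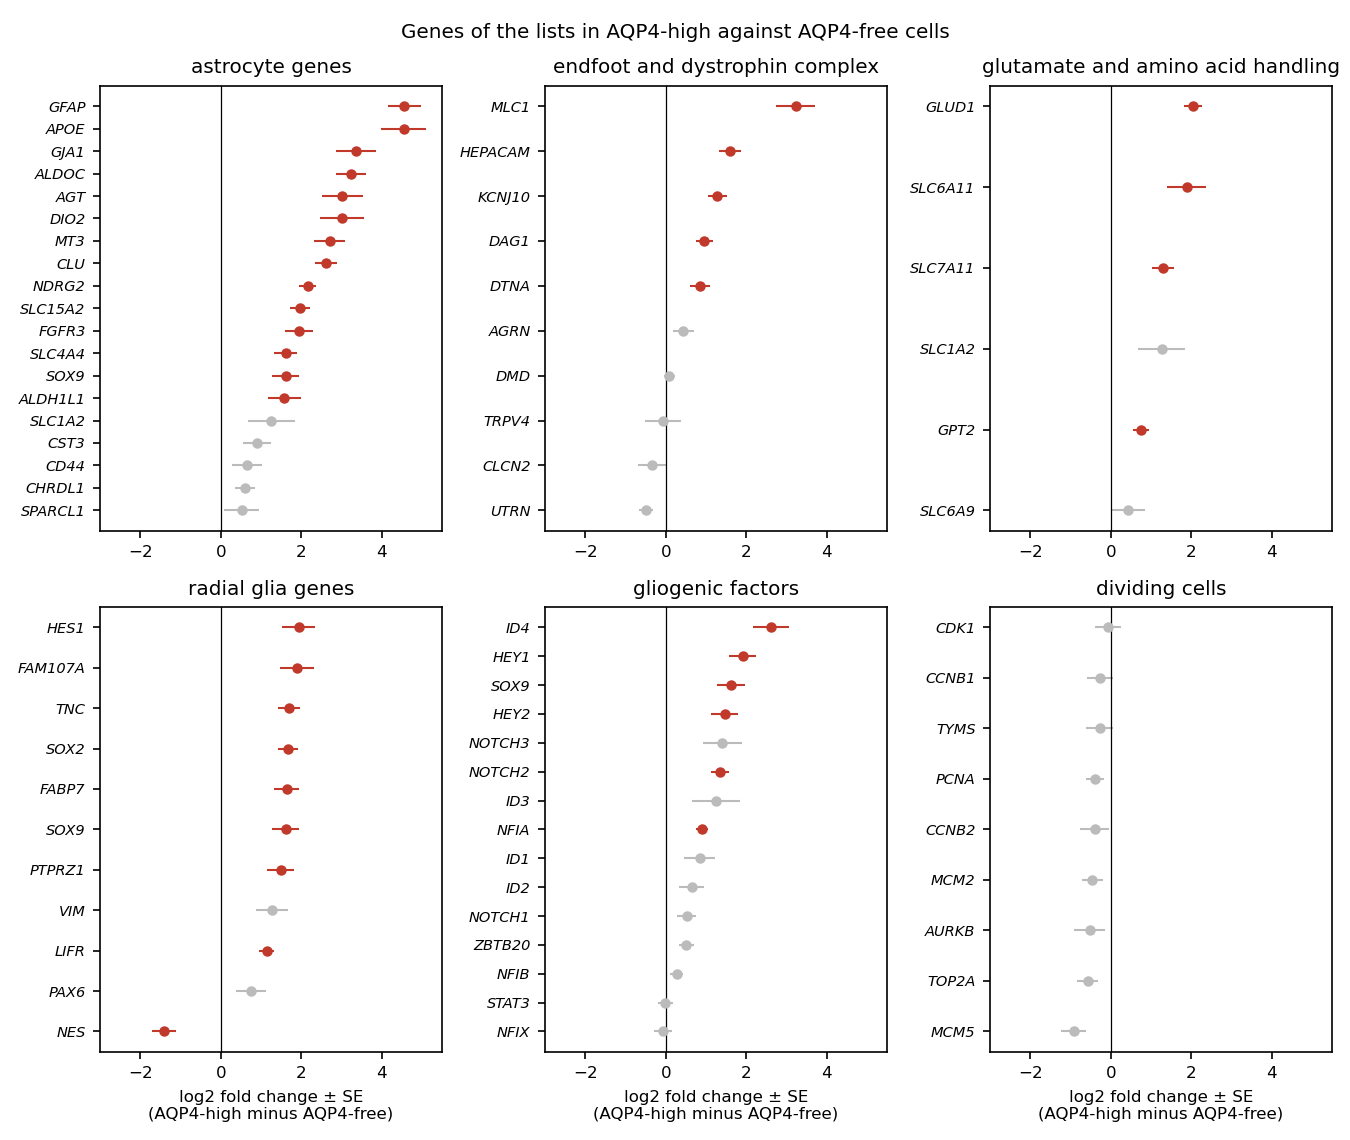
Log2 fold change ± SE (AQP4-high minus AQP4-free cells, 7 libraries) of genes of 6 lists, in red where the adjusted p was under 0.05. The astrocyte genes drawn all lie right of 0, NES lies left of 0, and none of the 9 genes of dividing cells was called.

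Genes outside the lists that had the largest increases included 4 of the S100 family of calcium-binding proteins, S100A1, S100A14, S100A4 and S100A6, which lie on chromosome 4 between 96007026 and 96099686. S100A6 was at 613, 332, 793, 533, 153, 382 and 1050 CPM in the members and at 39.5, 31.3, 59.6, 11, 22.5, 28.4 and 108 CPM in the AQP4-free cells, with no overlap (log2FC 3.81 ± 0.304, adjusted p = 0.000287). S100A1 was at 630, 617, 742, 196, 35.3, 126 and 4750 CPM in the members, lowest in E70_2 and highest in the adult (log2FC 4.56 ± 0.513, adjusted p = 0.000742). S100A14 and S100A4 had log2FC values of 4.33 ± 0.443 and 4.13 ± 0.689, and S100A4 was at 0 in the E70_2 members and at 3.7 CPM in the adult ones. S100B, the S100 protein most used to mark astrocytes, is not in the tables used here. The other genes among the 10 largest increases were GFAP, APOE, GJA1, ADIRF (4.61), GPR75 (an orphan receptor, 3.36) and DTHD1 (3.33).

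Among the lower genes were markers of other cell types and a cyclin. CCND1, the cyclin of the G1 phase, was at 0 to 12.4 CPM in the members and at 17.6 to 251 CPM in the AQP4-free cells, with no overlap (log2FC -3.56 ± 0.362, adjusted p = 0.000541). Markers of oligodendrocyte precursors were lower for 3 of 4 genes tested (background 5.43%), with a median log2FC of -1.71. OLIG1, the transcription factor of this lineage, was at 128, 46.5, 26.2, 5.52, 5.89, 9.39 and 22.2 CPM in the members and at 37 to 506 CPM in the AQP4-free cells, lower in the members of each library (log2FC -2.22 ± 0.365, adjusted p = 0.0034). PDGFRA and SOX10, a receptor and a transcription factor of the lineage, had log2FC values of -1.85 and -1.57.

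All 3 endothelial markers tested were lower, with a median log2FC of -2.34, as were 3 of 6 neuron markers (STMN2, TUBB3 and SLC17A6, median -1.38), MAG of the 4 oligodendrocyte markers and EOMES of the 2 markers of intermediate progenitors, against a background of 5.43% called lower. The 5 microglia markers, 3 mural markers and 4 choroid plexus markers were not called in either direction, and of 2 retina markers SFRP2, a secreted regulator of Wnt signals, was called higher (log2FC 1.40) but not without E60_1, E60_3 or E70_2. Of the 10 largest decreases, IAPP and NUPR1 rested on the adult AQP4-free cells, with 519 and 640 CPM there and at most 4.09 CPM in those of the fetal libraries. The others were TMEM26, APOA1, ITM2A, SLC17A6, NEUROD6, PLLP, MAG and CCND1. STMN2 was not called without E50_1, E70_2 or E70_3, EOMES and NEUROD6 without E60_3 or E70_3. The lower call of endothelial and neuronal genes depended on which AQP4-free cells were taken. With AQP4-free cells that held at least 2 SOX2 UMIs in place of SLC1A3, none of the 3 endothelial and 6 of the 6 neuron markers were called lower (background 5.1%), and FLT1 had a log2FC of 0.06 and APOA1 of 0.13. With the stricter AQP4-free cells, which STMN2 and FLT1 helped to define, no endothelial or neuron marker was called lower (background 4.78%), and STMN2 had a log2FC of 1.19 and NEUROD6 of 0.2.

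Whether genes of dividing cells were called depended on the AQP4-free cells. Against those chosen by SLC1A3, 0 of 9 were called in either direction (backgrounds 5.61% and 5.43%), with a median log2FC of -0.4. Against those chosen by SOX2, 4 of 9 were called lower in the members (background 5.1%, median log2FC -0.77), and against the stricter AQP4-free cells 7 of 9 (background 4.78%, median -0.95). TOP2A, the topoisomerase of S to M phase, was at 158, 149, 127, 290, 35.3, 73.1 and 9.24 CPM in the members and at 338, 232, 294, 156, 97.6, 122 and 6.77 CPM in the AQP4-free cells. Both classes overlapped (log2FC -0.58 ± 0.266, adjusted p = 0.187). TOP2A was called lower against the cells chosen by SOX2 (log2FC -1.46, adjusted p = 0.00386), against the stricter cells (-1.26, adjusted p = 0.00155) and without E60_3 (-0.86, adjusted p = 0.0321), the library whose members lay above their AQP4-free cells by the most. At least 2 TOP2A UMIs were found in 10.8%, 11.4%, 12.3% and 14.3% of the members of E50_1, E60_1, E60_2 and E60_3 and in 5.0% of those of E70_3, and in 0 of the 50 adult members. A floor of 3 counts then allows up to 6.0% of cells with that many UMIs, which is no limit on the share of cells expressing the gene. Among these libraries the share was lowest in E70_3 and the adult. When each cell was drawn down to 2000 UMIs, a TOP2A UMI was found in 9.46% of the E50_1, 11.8% of the E60_1, 10.9% of the E60_2, 11.4% of the E60_3 and 3.33% of the E70_3 members, against 1.61%, 6.51%, 10.3%, 11.2% and 5.19% of their microglia-like cells. The intervals of members and microglia-like cells lay apart in E60_1 (10.7 to 13.1% and 5.01 to 8.31%) and overlapped in the other 4 libraries.

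Within the members, the level of AQP4 went along with some of these genes. Cells were split into those with 0.1 to 0.2% and 0.2 to 0.4% of their UMIs in AQP4 in the 5 libraries with at least 50 members, as a description with no test. GFAP was higher in the second bin of 5 of 5 libraries, by 1.68 to 3.41 times. In E70_3, for example, it was at 26.4 CPM in the AQP4-free cells, 514 CPM in the first bin and 1400 CPM in the second, and in Adult_1 at 55.3, 1580 and 3250 CPM. MLC1 (1.12 to 2.0 times), SOX9 (1.01 to 1.57 times), HMGCS1 (1.07 to 1.36 times) and CLU (1.01 to 1.41 times) were also higher in 5 of 5 libraries. Some of these differences were slight, with overlapping intervals. SOX9 was at 51.3 against 51.6 CPM in E50_1 (31 UMIs in each bin), and CLU at 7370 against 7440 CPM in Adult_1. SLC1A3 was higher in only 3 of 5, NFIA and VIM in 2 of 5. TOP2A and CDK1, the mitotic kinase, were lower in the second bin of 5 of 5 libraries, but in Adult_1 this rests on 5 against 0 and 4 against 2 UMIs. In E70_3 TOP2A went from 107 CPM to 6.59 CPM and in E50_1 from 255 to 44.9 CPM. The decrease did not go on in all libraries. A further bin, of at least 0.4%, held 17, 704 and 20 cells in E50_1, E60_1 and E60_2 and under 10 in the others. TOP2A was at 215 (CI 149 to 301), 88.0 and 341 CPM (CI 239 to 472) in it, so that it was lowest there in E60_1 and back at the level of the AQP4-free cells or near the first bin in E60_2 and E50_1. CDK1 was at 108, 73.0 and 227 CPM in this bin, with the same split. GFAP was highest in this bin of all 3 libraries, at 1080, 747 and 767 CPM. Cells of the second bin had a lower median of UMIs in all 5 libraries. It was 5038 against 5092 in E60_2, 6672 against 7507.5 in E70_3 and 7799 against 11578.5 in Adult_1. The part of depth was not tested.

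**Figure D4:**
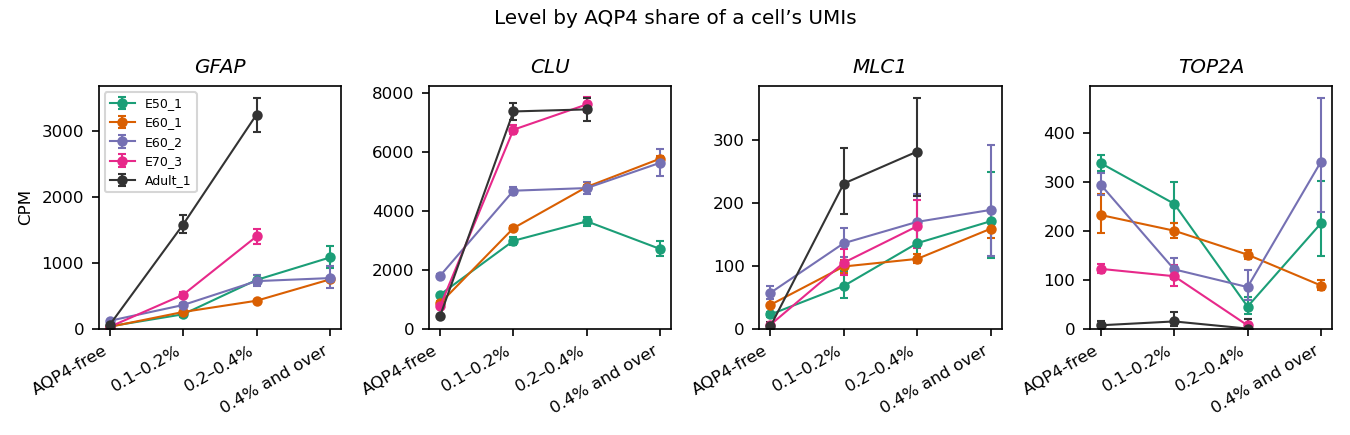
Level of GFAP, CLU, MLC1 and TOP2A (CPM, 95% Poisson intervals as bars) in AQP4-free cells and in members by the AQP4 share of their UMIs, for 5 libraries, where a bin held at least 10 cells. GFAP rises over the bins drawn in each library, and TOP2A of 0.2 to 0.4% lies below that of 0.1 to 0.2% in all 5 but is at 341 CPM in the last bin of E60_2 and 215 CPM in that of E50_1.

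The members of different libraries differed in genes that mark position along the brain. LHX2, a transcription factor of the cortical primordium, was at 13.2, 2.18, 0.654, 185, 94.2, 180 and 107 CPM. It was low in E50_1, E60_1 and E60_2 and high in E60_3, E70_2, E70_3 and Adult_1. EMX2 and DMRTA2, further factors of the dorsal forebrain, split the libraries in the same way, with 0.281 to 6.6 and 0 to 4.4 CPM in the first 3 libraries and 31.4 to 58.3 and 23.6 to 88.4 CPM in the others. A UMI of LHX2 was found in 6.08%, 0.906% and 0.362% of the members of E50_1, E60_1 and E60_2 and in 58.0% to 69.4% in the other 4 libraries. After drawing each cell down to 2000 UMIs these shares were 0.676%, 0.453% and 0%, against 18.0% to 31.7%.

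EN2, a transcription factor of the midbrain and hindbrain (chromosome 18 from 2781977 to 2788441), had the opposite distribution, with 22.7, 48.9, 29.4, 2.76, 0, 0 and 0 CPM. IRX2 (8.07, 23.8 and 21.6 CPM in E50_1, E60_1 and E60_2, and 0 in the other 4) was distributed in this way too. PAX3, of the dorsal midbrain and neural tube, was at 109, 16.9, 160, 22.1, 0, 0 and 1.85 CPM, and OTX2, of the forebrain and midbrain, at 5.87, 9.28, 45.8, 16.6, 0, 0 and 0 CPM. Not every midbrain and hindbrain gene had this distribution. PAX5 was at 33.3, 9.81 and 35.9 CPM in E60_1, E60_2 and E60_3 and at 47.1 and 30.2 CPM in E70_2 and E70_3. The microglia-like cells of E50_1, E60_1 and E60_2 held 4.54, 16.9 and 11.2 CPM of EN2, and the part of free RNA was not tested. At 2000 UMIs per cell an EN2 UMI was found in 9.27% of the E60_1 members (CI 8.23 to 10.4) and in 3.26% of its microglia-like cells (CI 2.21 to 4.62).

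The AQP4-free cells showed a like split, apart from E50_1. The summed CPM of the 7 forebrain genes was 33, 7.66, 7.19, 364, 183, 300 and 179 in the members and 218, 8.23, 9.49, 252, 79.1, 184 and 32.7 in the AQP4-free cells. In E50_1 the AQP4-free cells thus held more forebrain RNA than the members, and in E60_1 and E60_2 both classes held little. For the 16 midbrain and hindbrain genes the sums were 245, 157, 351, 99.4, 177, 42.9 and 90.6 in the members and 170, 173, 354, 65, 192, 60.6 and 108 in the AQP4-free cells. The 177 CPM of E70_2 was mostly LMX1A, at 124 CPM in its members and 140 CPM in its microglia-like cells. In the test of the classes, 0 of 5 forebrain genes and 1 of 10 midbrain and hindbrain genes (ZIC4, lower, and not called without E50_1 or E60_2) were called (backgrounds 5.61% and 5.43%), with median log2FC values of 0.12 and 0.11. E60_1 and E60_2 together held most members, so a pooled profile of AQP4-high cells is mainly that of libraries low in cortical genes. Whether these libraries held tissue from beside the MEC was not tested.

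Some members held RNA of ciliary genes. RSPH1, a radial spoke protein of motile cilia, was at 23.5, 314, 22.9, 2.76, 11.8, 8.72 and 88.7 CPM and FOXJ1, the master regulator of motile cilia, at 27.9, 120, 14.4, 8.28, 11.8, 6.71 and 81.3 CPM. E60_1 was the highest and Adult_1 the next in both. Both genes were called higher in the members than in the AQP4-free cells (2 of 2 ependymal markers tested, background 5.61%), with log2FC values of 2.31 ± 0.324 for FOXJ1 (adjusted p = 0.00151) and 2.03 ± 0.427 for RSPH1 (adjusted p = 0.011). RSPH1 was not higher in the members of E60_3, with 2.76 CPM (1 UMI) against 4.55 CPM in the AQP4-free cells. At least 2 RSPH1 UMIs, a limit set after seeing the data, were found in 730 members of E60_1 (25.4%, CI 23.8 to 27.1), 7 of Adult_1 (14%, CI 5.82 to 26.7) and 9 of E50_1 (6.08%). In E60_2, E70_2 and E70_3 there were 5, 1 and 2 such cells, and none in E60_3, where a floor of 3 counts allows up to 8.57% of cells with that many UMIs. At 2000 UMIs per cell an RSPH1 UMI was seen in 27.1% of the E60_1 members and in 3.69% of its microglia-like cells.

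In E60_1 the 730 members with RSPH1 were set beside its 2141 other members. They had 286 against 31.2 CPM of FOXJ1, 65.1 against 5.91 CPM of LPL, a lipase, and 2040 against 1240 CPM of VIM. TOP2A was at 48.1 against 203 CPM and SLC1A2 at 36.1 against 139 CPM. AQP4 stood at 3090 against 3060 CPM and GFAP at 431 against 465 CPM, so that these genes differed little between the groups. This is 1 library and has no replicate check, and 333 members of E60_1 had 1 RSPH1 UMI and 146 had 2, close to the limit. The limit counts UMIs per cell, so deeper cells meet it more readily. The part of depth in this split was not tested.

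**Figure D5:**
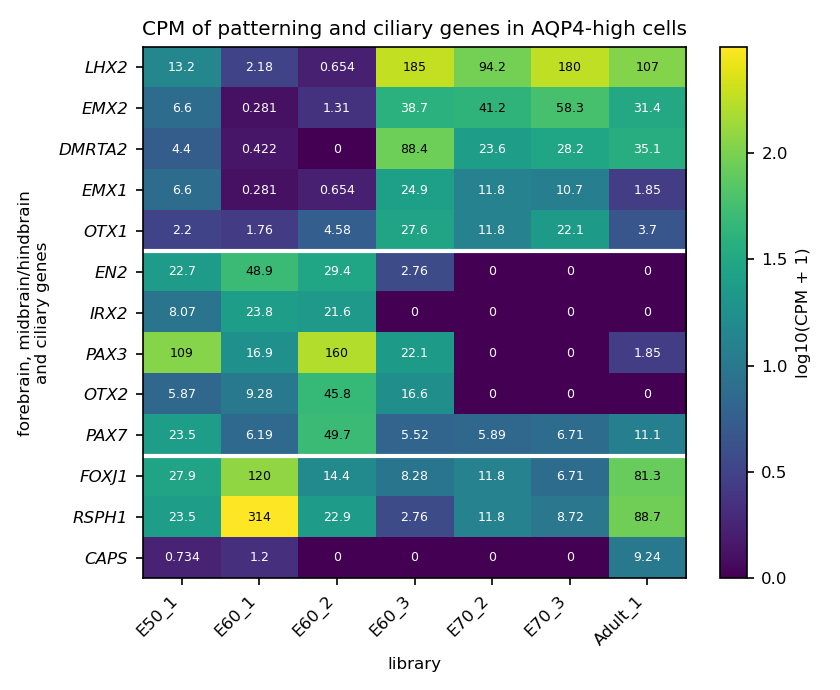
CPM of forebrain (top), midbrain and hindbrain (middle) and ciliary genes (bottom) in AQP4-high cells of the 7 libraries, with color on a log10(CPM + 1) scale. LHX2 is at 94.2 to 185 CPM in the 4 right-hand libraries and at most 13.2 CPM in E50_1, E60_1 and E60_2, and RSPH1 peaks at 314 CPM in E60_1.

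E60 and E70 were the only stages with replicates, and 3 E60 libraries were compared with the 2 E70 libraries that held at least 10 members by edgeR's quasi-likelihood test. No gene of 11662 was called (0.0%), the smallest adjusted p was 0.554, and 972 genes had an unadjusted p under 0.05. DESeq2 on the same counts called 84 genes (0.72%), and edgeR called 159, all higher at E70, when E70_3 was left out and the lone E70_2 was assumed to vary like the E60 libraries. GFAP was at 453, 481 and 561 CPM at E60 and at 954 and 845 CPM at E70, with no overlap but no call (log2FC of E70 minus E60 0.95 ± 0.334, adjusted p = 0.554). E60_3 and E70_3 shared a sequencing pool, and the log2 ratio between these 2 was 0.59.

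SPARCL1 was at 970, 1430 and 312 CPM at E60 and at 47.1 and 113 CPM at E70 (log2FC -3.3 ± 0.76, adjusted p = 0.554). DESeq2 called it lower at E70 (adjusted p = 0.00266), as did edgeR with the replicate number as a block (adjusted p = 0.0343), and over the other alternatives its adjusted p was 0.18 to 1.0. CDK1 was at 127, 114 and 130 against 17.7 and 49 CPM, and TOP2A at 149, 127 and 290 against 35.3 and 73.1 CPM, again without overlap. None of the 9 genes of dividing cells was called (background 0.0%), and their median log2FC was -1.49 against -0.02 for all genes. DMD, GLUD1, NFIA, CLU and SOX2 overlapped between the stages, with log2FC values between -0.1 and 0.38. E60_1 and E60_2 were also the libraries low in cortical genes, so that stage and position cannot be told apart for most of these values.

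The adult members came from 1 brain and 50 cells, and were set beside the 6 fetal libraries with no test. SLC1A2 was at 4770 CPM (Poisson 95% CI 4590 to 4960) against 103 to 377 CPM in the fetal members. At 2000 UMIs per cell 86.0% of the adult members had an SLC1A2 UMI, against 17.5% to 46.1% of the fetal ones. GFAP (2290 against 453 to 954 CPM) and AGT (815 against 12.4 to 118 CPM) were also highest there. The 3 genes were thus all at their highest in the adult.

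By the rule of the largest ratio, the genes highest in the adult against the mean of the fetal libraries included GJB6, the gap junction protein connexin 30 (53.6 against 0.291 CPM), SLC14A1, a urea transporter (364 against 2.94 CPM), NOV, a secreted matrix protein (268 against 1.96 CPM), PTGDS, the prostaglandin D synthase (105 against 2.59 CPM), and RPE65 (185 against 1.67 CPM). TMEM52 and CHCHD10 were at 348 and 346 CPM. Microglia-like cells of Adult_1 held at most 8.13 CPM of GJB6, SLC14A1, NOV, PTGDS and RPE65. MBP and OPALIN, genes of myelin, were at 2060 and 79.5 CPM, but microglia-like cells of Adult_1 also held 896 and 39.9 CPM of them. HCRT, the neuropeptide hypocretin, had 51 UMIs in the adult members, 33 of them in 1 cell, and none in the fetal ones, so that most of its RNA came from that cell.

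By the same rule 10 genes were lowest in the adult. HIST1H2AB, a histone of a gene family with near copies that can share reads, was at 7.39 against 416 CPM, UBE2C, which acts in mitosis, had no UMI against 172 CPM (at least 31.1-fold lower against a floor of 3 UMIs), and CENPF, a centromere protein, was at 3.7 (CI 0.448 to 13.4) against 140 CPM. MDK, a growth factor of the embryo, was at 12.9 against 348 CPM, IGFBPL1 at 9.24 against 208 CPM, and NPY, a neuropeptide, at 3.7 (CI 0.448 to 13.4) against 143 CPM. PCLAF, PBK, CRYM and NSG1 completed the 10. FABP7 and TNC, the radial glia genes, were at 470 and 62.9 CPM against 1930 to 6590 and 271 to 619 CPM in the fetal members.

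E50 was likewise 1 library, of 3 pooled brains, and was set beside the 5 later fetal libraries. The largest ratios were those of C4orf48 (333 against 2.33 CPM), APOE (9450 against 223 CPM), PCSK1N (795 against 21.6 CPM), CALY, TUBB3, TPGS1, MRPL36, SIVA1, RPS2 and PGLS. Each was also higher in the microglia-like cells of E50_1 than in those of the 5 later libraries. TUBB3 was at 496 against 9.4 CPM in them and RPS2, a ribosomal protein gene, at 1720 against 163 CPM, so that the microglia-like cells shared these increases. Other genes were chosen by a low ratio of E50_1 to the mean of the later libraries, which 1 high library can set. SLCO1C1, a transporter of thyroid hormone, was at 5.14 CPM in E50_1 and at 2.81 to 370 CPM in the later libraries, so that E50_1 was not the lowest, with the most in E70_3, whose microglia-like cells held 12.6 CPM. SPAG17, a ciliary gene, was at 2.93 CPM at E50 and 215 CPM in E60_1. XK, CCDC172, GRP, MYBPC3, SLAMF1, PRLR, IFI44L and GCNT1 were highest in E70_2, where the microglia-like cells held them too. PRLR, for example, reached 624 CPM in the E70_2 members and 633 CPM in the microglia-like cells, and SLAMF1 241 and 128 CPM.

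FOS, an immediate early gene, was at 222, 24, 67.4, 1470, 29.5, 1530 and 218 CPM in the members. E60_3 and E70_3, the pair that shared a sequencing pool, were far above the others, while their microglia-like cells held 201 and 134 CPM. In the AQP4-free cells of these libraries FOS was at 734 and 703 CPM, below the members, and in those of E60_1 at 150 CPM, above them. None of the 3 immediate early genes tested was called between the classes (backgrounds 5.61% and 5.43%, median log2FC -0.68). ATF3 was called lower in the members without E60_3 (adjusted p = 0.0391) and EGR1 with the stricter AQP4-free cells (adjusted p = 0.0431).

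In the nuclei the members were too few for a comparison. The 6 members of E70_nc held 10 SLC1A3 UMIs (706 CPM, CI 339 to 1300) and 2 GFAP UMIs (141 CPM, CI 17.1 to 510), and the 3 of Adult_nc held 34 SLC1A3 UMIs (4940 CPM), 42 SLC1A2 UMIs (6110 CPM, CI 4400 to 8260) and 7 GFAP UMIs (1020 CPM, CI 409 to 2100). SLC1A2 was thus high in adult members of both preparations, with only 3 members among the nuclei. The AQP4-free nuclei of Adult_nc also held 1320 CPM of SLC1A2, against 51.9 CPM in the AQP4-free cells of Adult_1. DMD, a long gene, was at 1480 CPM (CI 918 to 2270) in the member nuclei of E70 and at 350 to 518 CPM in the member whole cells of that stage. The AQP4-free class differed likewise, with 1220 CPM in the nuclei and 430 to 527 CPM in the whole cells. The 4 members of E70_1 held 311 CPM of SLC1A3, 69.1 CPM of GFAP (2 UMIs) and 2520 CPM of CLU.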

How the data were processed

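The authors captured whole cells or nuclei with 10X Genomics version 2 chemistry, mapped reads with introns included to Sscrofa11.1 (Ensembl annotation) by Cell Ranger (2.20 in the submitters' processing notes) and deposited raw UMI counts per gene and cell, 1 table per library. Of 22452 genes, 987 listed by ID were named from an Ensembl table. Members, gene lists and tests were chosen with earlier results of these data known. AQP4-free cells met the same limits with AQP4 at 0 and SLC1A3 of at least 2 UMIs. UMIs were summed per library and class and tested with edgeR 4.0.16 (glmQLFit, TMM, filterByExpr) in R 4.3.3, leaving out the genes of the rule, at an adjusted p of 0.05. The script was tested on simulated data. Alternatives were DESeq2 1.42.0, other scalings, filters and cells, and leaving out each library. Genes were named from the lists and as the 10 largest called changes or ratios in each direction with a symbol and at least 20 CPM, or 50 CPM for single-library ratios. Doublets, which Scrublet (scanpy 1.11.5) did not separate in E60_1 and E60_2 by its own threshold, were ranked at 0.8% per 1000 cells and kept. Sequencing pools were read from the study's library table. Coordinates are those of the RefSeq annotation of Sscrofa11.1. Some genes of the lists enter the counts, medians and sums but are not reported here by name.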

Additional observations from a re-analysis of the deposited data

How the results depend on the processing

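Of 1263 values of the 75 called genes of the lists and largest changes under alternatives, 1192 kept their direction and side of the threshold, 64 were no longer called and 7 turned. Of 1371 such values of the 82 list genes not called, 63 were called in the same direction, in 34 genes, of which 20 with AQP4-free cells chosen by SOX2 and 15 with the stricter ones, and 87 turned without a call. With AQP4-free cells chosen by SOX2, APOA1 turned to 0.13 and FLT1 to 0.06 (log2FC), and with the stricter AQP4-free cells, chosen after seeing the data, APOA1 turned to 0.29, ITM2A to 0.26, NEUROD6 to 0.2, STMN2 to 1.19 and FLT1 to 0.15, of which STMN2 and FLT1 defined these cells. The number of genes called between members and AQP4-free cells was 1514, 1979 with DESeq2, and 827 to 1764 when 1 library was left out, with 827 without E70_3, 955 without E50_1 and 1000 without E60_3. The share of members in E60_1 was 36.9% at 3 AQP4 UMIs, 23.9% at 10, 36.5% and 26.9% at an AQP4 share of 0.05% and 0.2%, 40.5% without limits on other cell types, 32.8% without doublets and 33.2% with the AQP4 limit raised after seeing the data. For E70 against E60, 0 genes were called, 84 with DESeq2 (70 higher, 14 lower), and 0 to 159 when 1 library was left out, the 159 without E70_3, where the lone E70_2 is assumed to vary like the E60 libraries. With the replicate number as a block 70 were called (60 higher, 10 lower), but the labels do not say that a number pairs libraries. Same-numbered libraries correlated at 0.031 and 0.06 in their deviations from the stage mean, and E60_1 with E70_2, of other numbers, at 0.056. The deviations of the 2 E70 libraries mirror each other, so these values cannot tell whether a number pairs libraries. The cause of these differences in the number of genes called was not tested. The remaining alternatives for this comparison called 0. The median member held 9 to 20 AQP4 UMIs in the 7 libraries compared, and 35, 16 and 50 members in E60_3, E70_2 and Adult_1 limit what could be seen there.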
